A study of Mus musculus with 66 samples.

Results

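Penk, Pdyn and Tac1 are the genes of the peptide precursors by which the projection neurons of the striatum are usually told apart, and they are 3 of the 24138 genes in the deposited table of the series. They were found in the table by their gene symbols, and were chosen with earlier results of these data known. RNA was sequenced from punches of the ventral striatum around the nucleus accumbens (NAcc) of male mice, at 6 time points of the daily cycle. The 66 libraries fall into 22 groups of 3. Mice labelled wild type (WT) and iMSN-D2RKO mice received saline or cocaine at 20 mg/kg by intraperitoneal injection at zeitgeber time (ZT) 3, and both treatments were sampled at ZT7, ZT11, ZT15, ZT19 and ZT23. The ZT3 libraries, 3 per genotype, stand at the start of both series. ZT3, ZT7 and ZT11 were in the light and ZT15, ZT19 and ZT23 in the dark.

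In iMSN-D2RKO mice, which carry D2R flox/flox and D1R-CRE+/-, exon 2 of the D2 receptor gene is removed where the D1 receptor promoter has driven Cre. According to the study's methods, the indirect-pathway medium spiny neurons (iMSNs) are reached because embryonic precursors of both spiny neuron types use that promoter. The mice were males of 3 to 5 months on a C57BL/6J background by the study's reporting summary, while the labels give the strain as C57BL/6. The WT mice are labelled wild type with no further genotype. The punch holds all cell types of the region, so a lower level from fewer cells of a type and one from less RNA per cell cannot be told apart.

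Spiny neurons use GABA as transmitter and release peptides beside it. Penk encodes preproenkephalin, the source of the enkephalins, which act on delta and mu opioid receptors, and in the striatum it is chiefly a gene of the indirect-pathway neurons that carry the inhibitory D2 dopamine receptor. Pdyn encodes prodynorphin, the source of the dynorphins, which act on the kappa opioid receptor, and Tac1 encodes the precursor of substance P, the ligand of the NK1 receptor. Both belong chiefly to the direct-pathway neurons that carry the D1 receptor. Dopamine is known to hold enkephalin synthesis down through D2 and to drive dynorphin and substance P synthesis through D1.

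The positions are those of GENCODE on GRCm38, which is mm10. Penk (XLOC_014908 in the table) lies on the minus strand at chr4:4133531-4138819, Pdyn (XLOC_012766) on the minus strand at chr2:129686565-129699844, and Tac1 (XLOC_017040) on the plus strand at chr6:7554879-7565834. RefSeq promoters, 250 bases before to 50 bases after the start of a gene, were at hand for Pdyn and Tac1. They are shown because cyclic AMP signalling, which D1 raises and D2 lowers, is known to act on these precursor genes through short CRE and AP-1 elements. Capitals mark matches to 4 short motifs searched on both strands. These were the CRE core TGACG, the heptamer TGCGTCA, the AP-1 site TGANTCA and the E-box CACGTG, which clock factors bind. The windows are chr2:129699889-129700188 (minus strand) for Pdyn and chr6:7554811-7555110 (plus strand) for Tac1, both of GRCm38.p6.
Pdyn: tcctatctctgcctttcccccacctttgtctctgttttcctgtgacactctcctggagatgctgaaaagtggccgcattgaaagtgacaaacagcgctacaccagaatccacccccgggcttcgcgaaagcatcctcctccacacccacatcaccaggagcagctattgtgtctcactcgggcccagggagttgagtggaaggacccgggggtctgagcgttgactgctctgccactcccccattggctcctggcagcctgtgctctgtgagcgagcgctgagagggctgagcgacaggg
Tac1: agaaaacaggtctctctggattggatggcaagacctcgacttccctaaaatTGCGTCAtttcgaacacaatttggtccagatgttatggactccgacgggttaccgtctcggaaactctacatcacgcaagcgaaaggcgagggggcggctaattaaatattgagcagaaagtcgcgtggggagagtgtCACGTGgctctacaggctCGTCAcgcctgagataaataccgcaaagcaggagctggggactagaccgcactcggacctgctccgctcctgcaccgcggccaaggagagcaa
The Tac1 window held TGCGTCA once, starting 199 bases before the RefSeq start, and TGACG on the minus strand at 2 places, whose leftmost bases lie 197 and 43 bases before the start. The first of these lies within the heptamer, since TGCGTCA holds the complement of TGACG. The E-box stood 61 bases before the start, and TGANTCA was not matched. Neither the Pdyn window shown nor that of a second RefSeq start of the gene matched any of the 4 motifs. Of 32851 RefSeq promoters of the same length, 20.8% held TGACG, 2.12% TGCGTCA, 7.81% TGANTCA and 7.15% CACGTG, so that a match to TGACG is common. The RefSeq start of Tac1 lies 182 bases downstream of the first base of the gene in GENCODE, and that of Pdyn 94 bases upstream of it. No binding was measured, and a match is a description of the letters.

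The libraries were not alike in quality. The values are FPKM (fragments per length of transcript and per depth of the library), so levels of different genes can be set beside each other. Total FPKM per library ran from 364078 to 690048, and between 12496 and 13028 genes per library had 1 FPKM or more. The number of reads is unknown, but a relative depth read from the steps of 1439 low genes ran from 0.379 to 1.73. When the deviations of 9584 genes from their group means were reduced to axes, the first took up 43.6% of the variance. Each library was scored on this axis with its group mean left in, and 13 libraries stood apart from the other 53. Their scores were 44.3 to 56.1, against at most 15.1 in the others. They comprised 6 WT and 7 iMSN-D2RKO libraries, and 12 of the 13 were from the dark hours. In each of the 10 groups with such a library, the lowest Pdyn and the highest Drd2 of the group were found in one. Over all groups Drd2 had a median of 228 FPKM in the 13 libraries and 118 FPKM in the others, Pdyn 46.2 and 73.4 FPKM, Penk 2277 and 1631 FPKM and Tac1 287 and 246 FPKM. Adora2a, the adenosine receptor gene of indirect-pathway neurons, went the other way from Drd2 and Penk, with 65.3 to 120.2 FPKM in the 13 libraries. In the others it had 128.6 FPKM or more, apart from 81.2 FPKM in WT replicate 2 of ZT19 cocaine. Each comparison of levels was therefore repeated without the 13 libraries.

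One iMSN-D2RKO library, replicate 1 of ZT7 saline, had 9282 FPKM of Penk. This was 2.73 times the highest value elsewhere, and 1.35% of the library's total FPKM against 0.226% to 0.733% in the others. It also had the highest total FPKM of the series (690048, with 465297 the next) and the highest Drd2 (375 FPKM). Penk was there at 5.65 times the median of the other libraries, and of the other 9 of its 10 most abundant genes Sepw1, a selenoprotein gene, was raised the most (8.47 times) and Cst3, which encodes cystatin C, the least (2.36 times). Its Pdyn, at 26.9 FPKM, ranked 64 of 66. Its relative depth, 0.421, was the second lowest. The means and genotype ratios of ZT7 saline are given with and without it.

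Drd2, the gene targeted in iMSN-D2RKO mice (chr9:49340627-49408177, plus strand), did not separate the genotypes. In the 18 WT libraries of ZT3 and saline it ran from 99.6 over a median of 126 to 279 FPKM, and in the 18 iMSN-D2RKO libraries from 78.0 over 107 to 375 FPKM. After cocaine the WT libraries gave 99.1, 145 and 304 FPKM (lowest, median and highest of 15), and the iMSN-D2RKO libraries 81.1, 118 and 299.7 FPKM. The ranges overlapped in large part, with the lowest values in iMSN-D2RKO mice under either treatment. The difference between them was -0.02 ± 0.17 on the log2 scale in saline (SE, limma adjusted p = 0.978) and -0.25 ± 0.19 after cocaine (adjusted p = 1). An FPKM over the whole gene cannot check the loss of a single exon.

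Penk was among the most abundant transcripts of the punches. Its mean of 1874 FPKM over the 66 libraries was the fifth highest (rank 5) of the 24138 genes. Tac1 had a mean of 259 FPKM (rank 168) and Pdyn of 65.7 FPKM (rank 1216). The spread within groups was 29.8% for Penk, 22.1% for Tac1 and 35.4% for Pdyn, as a standard deviation over all groups.

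**Figure D1:**
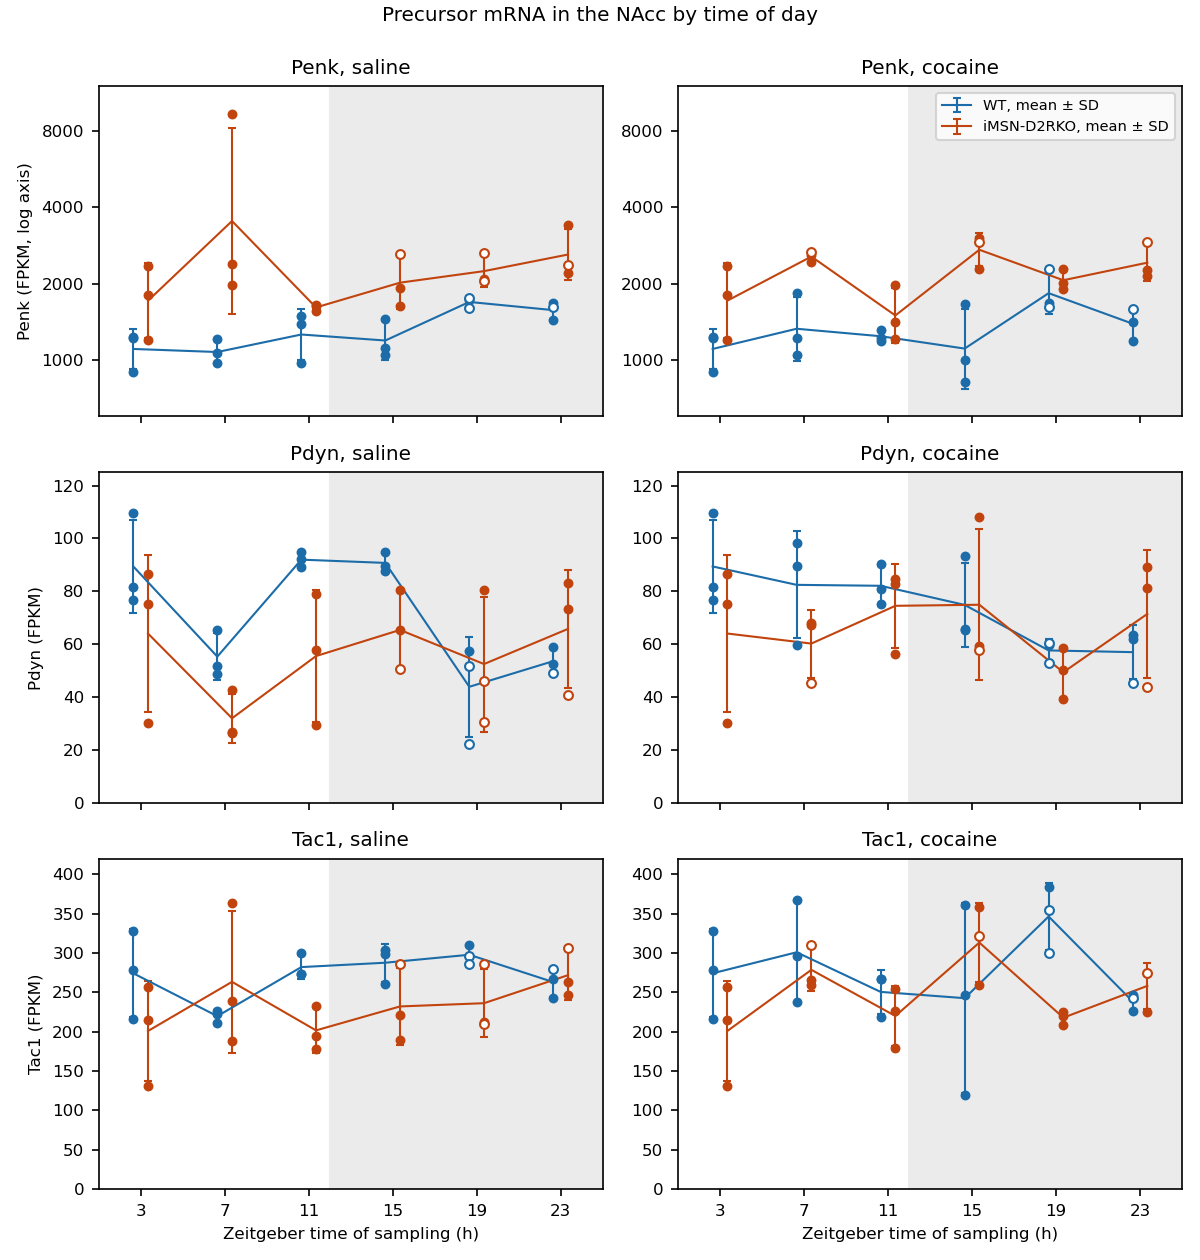
Level of Penk, Pdyn and Tac1 (FPKM, logarithmic axis for Penk) against zeitgeber time in saline (left) and cocaine (right), with the ZT3 libraries in both. Points are libraries, lines join group means (of log2 values for Penk) with SD (n = 3), open points are the 13 libraries that stood apart, and grey marks the dark hours. For Penk the iMSN-D2RKO points lie above the WT points at 5 of the 6 saline time points, whereas for Pdyn they lie below at 3 of the 6 and for Tac1 at 1.

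Penk was higher in iMSN-D2RKO than in WT mice, with either treatment. The saline series, ZT3 included, is described first. At ZT3 the WT libraries had 1235, 894 and 1224 FPKM of Penk and the iMSN-D2RKO libraries 1796, 1197 and 2339 FPKM. At ZT7 they had 1065, 969 and 1205 FPKM in WT and 9282, 1983 and 2384 FPKM in iMSN-D2RKO mice. The ranges overlapped at ZT3, by a single iMSN-D2RKO library, and were far apart at ZT7. At ZT11 WT mice gave 1486, 1389 and 969.9 FPKM and iMSN-D2RKO mice 1631, 1643 and 1561 FPKM. At ZT15 the values were 1454, 1047 and 1117 FPKM in WT and 1632, 2625 and 1915 FPKM in iMSN-D2RKO mice. Here the lowest iMSN-D2RKO library was just above the highest WT library at both times. At ZT19 WT mice had 1758, 1599.8 and 1726 FPKM and iMSN-D2RKO mice 2643, 2080.2 and 2042 FPKM. At ZT23 the levels were 1613, 1442 and 1671 FPKM in WT and 2201, 3399 and 2358 FPKM in iMSN-D2RKO mice. Again all iMSN-D2RKO libraries were above all WT libraries.

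Penk was thus above WT in every iMSN-D2RKO library at 5 of 6 time points. Of 14287 genes tested, 7 (0.0490%) were so at 5 or more. The iMSN-D2RKO mean was higher at all 6 time points, and the ratio of the means was 1.59, 4.21, 1.26, 1.71, 1.33 and 1.68 from ZT3 to ZT23. Without the library with 9282 FPKM, the ZT7 ratio was 2.02. Over the series the difference was 0.76 ± 0.15 on the log2 scale (SE, 95% interval 0.45 to 1.07), a fold of 1.70, with limma adjusted p = 0.0165. Penk was 1 of 27 genes called (0.189% of 14287), ranking 16 by p, and the median of all genes was shifted by 0.01. The call was kept without the library with 9282 FPKM (0.64, adjusted p = 1.89e-04). It was lost with no filter on low values (0.76, adjusted p = 0.0547) and without the 13 libraries (0.79, adjusted p = 0.0609). It was also lost when replicate number 2 or 3 was left out of every group (0.76, adjusted p = 0.719, and 0.80, adjusted p = 0.656).

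After cocaine, Penk at ZT7 was 1223, 1836 and 1043 FPKM in WT and 2589, 2658 and 2426 FPKM in iMSN-D2RKO mice. At ZT11 it was 1223, 1317 and 1187 FPKM in WT and 1966, 1211 and 1411 FPKM in iMSN-D2RKO mice. The groups were apart at ZT7 and overlapped at ZT11. At ZT15 WT mice had 1661, 1000.2 and 822 FPKM and iMSN-D2RKO mice 3012, 2284 and 2920.0 FPKM. At ZT19 the values were 1614, 1677 and 2277 FPKM in WT and 2018, 2282 and 1903 FPKM in iMSN-D2RKO mice. At ZT23 they were 1193, 1416 and 1591 FPKM in WT and 2928, 2259 and 2137 FPKM in iMSN-D2RKO mice. The genotypes were apart at ZT15 and ZT23 and overlapped at ZT19. All iMSN-D2RKO libraries were therefore above all WT libraries at 3 of 5 time points, as for 72 of 14382 genes (0.501%).

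The ratio of the Penk means after cocaine was 1.87, 1.23, 2.36, 1.11 and 1.74 from ZT7 to ZT23, above 1 at all 5 time points. The difference over the cocaine libraries, none of which entered the saline comparison, was 0.69 ± 0.13 on the log2 scale (SE, 95% interval 0.43 to 0.96), a fold of 1.62, with limma adjusted p = 0.0224. In this comparison 7 of 14382 genes were called (0.0487%), and Penk was ranked 6 by p. The call was lost, with a like difference, with no filter on low values (0.69, adjusted p = 0.192) and without the libraries that stood apart (0.70, adjusted p = 0.0574). It was also lost without iMSN-D2RKO replicate 1 of ZT11 (0.68, adjusted p = 0.0556) or replicate 1 of ZT15 (0.66, adjusted p = 0.0538). Leaving out any of the replicate numbers 1, 2 or 3 in all groups ended it too (0.62 to 0.77).

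**Figure D2:**
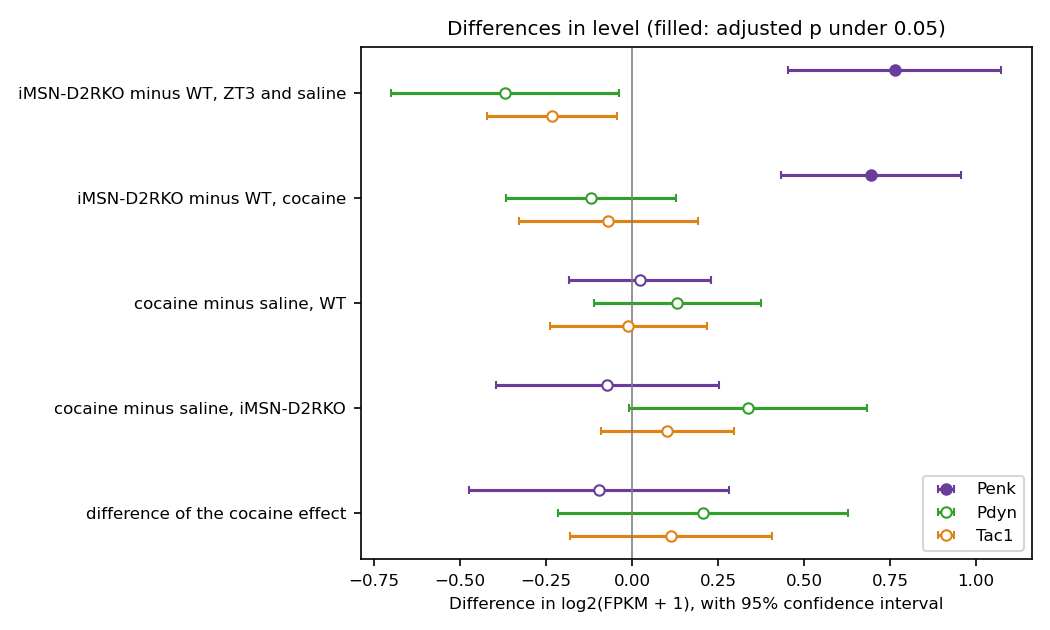
Difference in log2(FPKM + 1) of the 3 genes in the 5 comparisons of level (points, with 95% confidence intervals as bars). Filled points have an adjusted p under 0.05, which only Penk has, in both comparisons of iMSN-D2RKO with WT mice (0.76 and 0.69).

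The order of the 22 group means shows the same separation of Penk at its 2 ends. In between, at ranks 10, 12 and 14, iMSN-D2RKO groups lay among WT groups. These were ZT3 (1777 FPKM), ZT11 saline (1612 FPKM) and ZT11 cocaine (1530 FPKM). The 8 highest means were all from iMSN-D2RKO mice, led by 4549.7 ± 4103 FPKM at ZT7 saline (SD, n = 3) and 2738 ± 397 FPKM at ZT15 cocaine. The first of these rests on the library with 9282 FPKM, and the mean of the other 2 libraries was 2184 FPKM, between the groups that stand 6 and 7 in the order. The highest WT mean, 1856 ± 366 FPKM at ZT19 cocaine, stood ninth, and the lowest of all was WT at ZT7 saline with 1079.7 ± 119 FPKM. Between all neighbours in this order the gap was smaller than the larger of their SDs. At ZT3, the hour of the injection, the difference was 0.63 on the log2 scale with an unadjusted limma p of 0.0441 and an adjusted p of 1. There 6 of 14643 genes were called (0.0410%), none of them Penk, Pdyn or Tac1.

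Neither Pdyn nor Tac1, the precursors of the direct pathway, passed the test between the genotypes. For Pdyn the ZT3 libraries had 109.6, 76.8 and 81.8 FPKM in WT and 86.6, 30.3 and 75.1 FPKM in iMSN-D2RKO mice. At ZT7 saline they had 65.4, 51.7 and 48.7 FPKM in WT and 26.9, 42.6 and 26.3 FPKM in iMSN-D2RKO mice. The second pair of groups did not overlap, and the iMSN-D2RKO group had the lowest Pdyn mean of all 22 (31.9 ± 9.23 FPKM, SD, n = 3, or 34.4 FPKM without the library of highest Penk). At ZT11 saline WT mice gave 92.1, 94.8 and 89.1 FPKM, the highest group mean of Pdyn (92.0 ± 2.88 FPKM), and iMSN-D2RKO mice 29.5, 79.1 and 57.9 FPKM. At ZT15 saline the values were 89.7, 87.5 and 95 FPKM in WT and 65.2, 50.4 and 80.5 FPKM in iMSN-D2RKO mice. From ZT7 to ZT15 all iMSN-D2RKO libraries were thus below all WT libraries, and 74 of 14287 genes (0.518%) were so at 3 or more of the 6 saline time points. At ZT19 saline Pdyn was 22.3, 51.8 and 57.6 FPKM in WT and 30.6, 80.6 and 46.2 FPKM in iMSN-D2RKO mice. At ZT23 saline it was 49.2, 52.7 and 58.8 FPKM in WT and 73.4, 83.2 and 40.7 FPKM in iMSN-D2RKO mice. At these later times the ranges overlapped and the iMSN-D2RKO mean was the higher one. At ZT19 the WT libraries at 22.3 and 51.8 FPKM were among those that stood apart. So were the iMSN-D2RKO libraries at 30.6 and 46.2 FPKM. The libraries there that did not stand apart had 57.6 FPKM in WT and 80.6 FPKM in iMSN-D2RKO mice. With only the library at 22.3 FPKM left out, WT had 51.8 and 57.6 FPKM, beside an iMSN-D2RKO mean of 52.5 FPKM.

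The ratio of the Pdyn means went from 0.716, 0.578, 0.603 and 0.721 at ZT3 to ZT15 to 1.20 and 1.23 at ZT19 and ZT23. At ZT7 the ratio was 0.623 without the library with 9282 FPKM of Penk. The means behind the 1.20 at ZT19 include libraries that stood apart in both genotypes, the WT library with 22.3 FPKM of Pdyn among them. Over the saline series the difference was -0.37 ± 0.16 on the log2 scale (SE, 95% interval -0.70 to -0.04). The unadjusted limma p was 0.0296 and the adjusted p 0.459. After cocaine the difference was -0.12 (95% interval -0.37 to 0.13, adjusted p = 1).

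**Figure D3:**
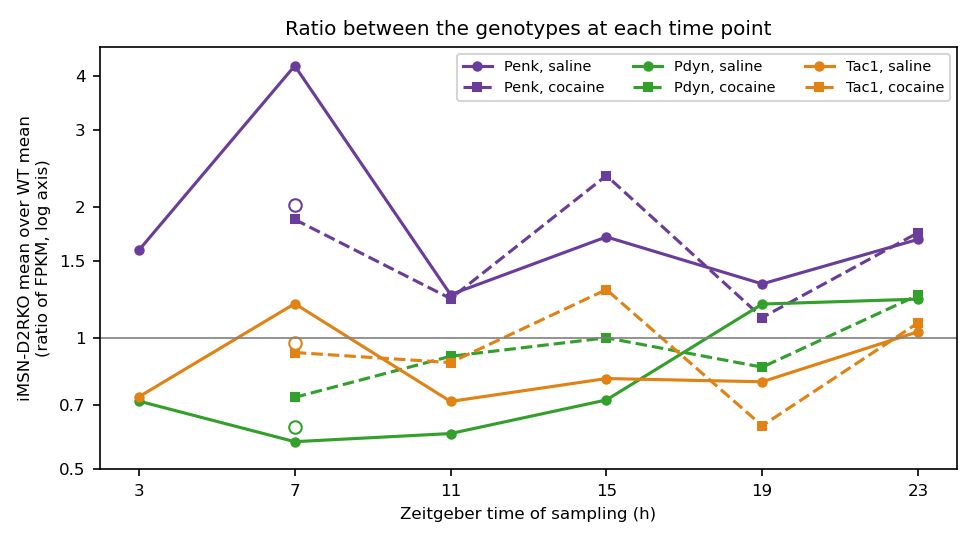
Ratio of the iMSN-D2RKO mean to the WT mean (FPKM, logarithmic axis, n = 3 libraries per mean) of each gene at each zeitgeber time, in saline with ZT3 (circles, solid) and after cocaine (squares, dashed). Open circles at ZT7 leave out the library with 9282 FPKM of Penk (ratio 2.02 in place of 4.21). Penk stays above 1 at all time points, and Pdyn in saline crosses from 0.721 at ZT15 to 1.20 at ZT19. The means behind the 1.20 include libraries that stood apart in both genotypes, a WT library with 22.3 FPKM of Pdyn among them.

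Tac1 varied least of the 3 genes. At ZT3 it was at 328, 216 and 278 FPKM in WT and 215, 132 and 257 FPKM in iMSN-D2RKO mice. At ZT7 saline it was at 222, 226 and 211 FPKM in WT and 363, 188 and 239 FPKM in iMSN-D2RKO mice, where 363 FPKM belongs to the library with the highest Penk. At ZT11 saline the WT libraries had 274, 300.1 and 273 FPKM and the iMSN-D2RKO libraries 178, 233 and 194 FPKM. Of these times, the groups were apart only at ZT11, and 26.8% of all genes had the iMSN-D2RKO libraries below WT at 1 or more of the 6 time points. At ZT15 saline Tac1 was 304, 260.2 and 299 FPKM in WT and 189.6, 286 and 221 FPKM in iMSN-D2RKO mice. At ZT19 saline it was 297, 286 and 311 FPKM in WT and 287, 212 and 210.4 FPKM in iMSN-D2RKO mice. At ZT23 saline the values were 280.2, 242 and 267 FPKM in WT and 246, 263 and 306 FPKM in iMSN-D2RKO mice. The iMSN-D2RKO mean of Tac1 was lower at 4 of the 6 time points, with ratios from 0.715 to 1.20. The 1.20, at ZT7, rests on the library with the highest Penk, and without it the ratio was 0.972, below 1 as at the 4 other times.

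Over the saline series Tac1 differed by -0.23 ± 0.09 on the log2 scale (SE, 95% interval -0.42 to -0.04, limma adjusted p = 0.428, unadjusted p = 0.0177). After cocaine the difference was -0.07 (95% interval -0.33 to 0.19, adjusted p = 1). At ZT19 after cocaine all WT libraries (299.8, 385 and 355 FPKM, the highest group mean of Tac1 at 347 ± 43.1 FPKM, SD, n = 3) were above all iMSN-D2RKO libraries (220.3, 225 and 208 FPKM). After cocaine 45.0% of 14382 genes were so at 1 or more of the 5 time points. The group means of Tac1 ranged from there down to 201 ± 63.6 FPKM in iMSN-D2RKO mice at ZT3. Neighbours in the order of Tac1, and in that of Pdyn, differed by less than the larger of their SDs.

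A ratio of 2 precursors within a library does not depend on how the library was scaled. In WT mice of the saline series the median of log2(Tac1/Penk) was -2.26, and in iMSN-D2RKO mice it was -3.19. The mean difference over time points was -0.998, so that Tac1 relative to Penk was 0.501 of the WT value (exact permutation test within time points, two-sided, p = 3.125e-08, the smallest of 64000000 permutations, and 3.75e-07 after adjustment over 12 ratio tests). After cocaine the ratio differed by -0.76, to 0.589 of the WT value (exact p = 1.875e-06, adjusted 1.125e-05). Pdyn relative to Penk was likewise lower in iMSN-D2RKO mice, by 1.14 on the log2 scale in saline (0.453 of the WT value, exact p = 2.31e-05, adjusted 9.23e-05) and by 0.82 after cocaine (0.567 of the WT value, exact p = 1.23e-04, adjusted 3.69e-04). These ratios share the Penk values compared above, and are no separate evidence for the Penk difference. Ratios of other genes to Penk were not computed. The ratio of Tac1 to Pdyn, the precursors of the direct pathway, differed by 0.14 in saline (exact p = 0.450) and by 0.05 after cocaine (exact p = 0.731).

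No difference between cocaine and saline passed the test for any of the 3 genes. In WT mice the 15 saline libraries of ZT7 to ZT23 had 969, 1442 and 1758 FPKM of Penk (lowest, median and highest), and the 15 cocaine libraries 822, 1317 and 2277 FPKM. The ranges overlapped, and cocaine minus saline was 0.02 on the log2 scale (95% interval -0.18 to 0.23). For Pdyn the difference was 0.13 (-0.11 to 0.37) and for Tac1 -0.01 (-0.24 to 0.22). None of 14392 genes was called by limma in WT mice (0%), while 365 had an unadjusted p under 0.05. In iMSN-D2RKO mice the difference was -0.07 for Penk (95% interval -0.40 to 0.25) and 0.10 for Tac1 (-0.09 to 0.30). For Pdyn it was 0.34 (-0.01 to 0.68), with an unadjusted limma p of 0.0554 and an adjusted p of 0.999. Here 0 of 14238 genes were called (0%), and 425 had an unadjusted p under 0.05. The cocaine effect itself did not differ between genotypes by the limma interaction term for any gene (0% of 14622, with 245 at an unadjusted p under 0.05). For the 3 genes that term was -0.10 (Penk), 0.21 (Pdyn) and 0.11 (Tac1), with adjusted p = 1 for each.

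At single time points none of the 30 comparisons of cocaine with saline (3 genes, 5 time points, 2 genotypes) was called. Over all 14643 genes the share called was 0.00683% in WT mice at ZT7 and at ZT15, 0.0205% at ZT19 and 0% at ZT11 and ZT23. In iMSN-D2RKO mice it was 0.0137% at ZT7 and 0% at the other times. The largest difference of the 3 genes was that of Pdyn in iMSN-D2RKO mice at ZT7, 4 h after the injection. The cocaine libraries had 67.3, 45.3 and 68.0 FPKM of Pdyn and the saline libraries 26.9, 42.6 and 26.3 FPKM, without overlap, as for 7.93% of all genes at this time. The difference was 0.91 ± 0.34 on the log2 scale (SE, 95% interval 0.22 to 1.59, limma adjusted p = 0.140). Without the saline library at 42.6 FPKM, replicate 2, it was called, and the saline library with 9282 FPKM of Penk is among these 3. In WT mice at the same time Pdyn was 65.4, 51.7 and 48.7 FPKM after saline and 98.3, 89.4 and 59.6 FPKM after cocaine, which overlapped (0.55, adjusted p = 1). The 3 WT libraries of Tac1 after cocaine were all above saline at ZT7, as for 4.84% of 14643 genes, and all below at ZT11, as for 5.75%. At ZT11 Pdyn after cocaine was 90.2, 80.9 and 75.1 FPKM in WT and 84.7, 82.6 and 56.2 FPKM in iMSN-D2RKO mice, and the genotypes overlapped.

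At the later times after cocaine, Pdyn was 93.3, 65.4 and 65.9 FPKM in WT mice at ZT15 and 108, 59.1 and 57.7 FPKM in iMSN-D2RKO mice. At ZT19 the values were 60.4, 59.6 and 52.8 FPKM in WT and 58.6, 39.3 and 50.2 FPKM in iMSN-D2RKO mice. At ZT23 they were 63.6, 62.0 and 45.3 FPKM in WT and 43.8, 81.3 and 89.2 FPKM in iMSN-D2RKO mice. The genotypes overlapped at each of these times. Tac1 after cocaine spread widely at ZT15 in WT mice, with 362, 246 and 120.1 FPKM, beside 359, 259 and 322 FPKM in iMSN-D2RKO mice. The lowest of these, 120.1 FPKM, was the lowest Tac1 value of all 66 libraries, and the same WT library had the lowest Penk (822 FPKM). It also had the lowest relative depth (0.379) and the lowest total FPKM (364078) of the series. At ZT23 Tac1 was 226, 247 and 242 FPKM in WT and 275, 225 and 275 FPKM in iMSN-D2RKO mice after cocaine.

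The study asked how cocaine and the D2 receptor of iMSNs shape the daily rhythms of the NAcc, and of the 3 genes Penk in WT saline mice came closest to passing the test for a rhythm. Penk in WT saline mice had its lowest mean at ZT7 (1079.7 FPKM) and its highest at ZT19 (1695 FPKM), a ratio of 1.57. JTK_CYCLE, a rank test for periodic series, gave a corrected exact p of 0.0199 with a period of 24 h and a peak at ZT21, which misses the threshold of 0.01. Periods of 20 and 24 h were searched here. With 28 h added, which the window named in the study's methods includes and which is longer than the sampled day, the corrected exact p of Penk in WT saline mice was 0.00608 and passed. With periods of 20 and 24 h, 9.58% of 14405 genes were rhythmic in WT saline, 7.57% in WT cocaine, and of 14267 genes 2.57% in iMSN-D2RKO saline and 1.09% in iMSN-D2RKO cocaine mice. Pdyn and Tac1 were not called in any of the 4 series, with or without the period of 28 h, and Penk was called only in WT saline mice with it, where 11.1% of all genes were. Tac1 in WT saline mice, whose peak fell at ZT19 by a period of 20 h, had a corrected exact p of 0.0555, and Pdyn in WT cocaine mice, with its peak at ZT9, 0.0216. Each of these series has 18 values, of which 1 was left out by Dixon's outlier test. The corrected p of Pdyn in WT saline was 0.703 and that of Penk in iMSN-D2RKO saline mice 0.839. The other 7 were 1. No difference in rhythm between series was called by limma for any gene (0% in all 4 comparisons, with 198 to 789 genes at an unadjusted p under 0.05). The smallest p of the 3 genes was that of Pdyn between genotypes in saline (unadjusted 0.0738, adjusted 0.975).

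Between the dark and the light hours the share of genes called was 2.75% in WT saline, 13.7% in WT cocaine, 27.3% in iMSN-D2RKO saline and 0.942% in iMSN-D2RKO cocaine mice. Penk, Pdyn and Tac1 were not among them. The dark minus light difference of Penk was 0.36 in WT saline (limma adjusted p = 0.177), 0.21 in WT cocaine (adjusted p = 0.383), 0.09 in iMSN-D2RKO saline (adjusted p = 0.706) and 0.35 in iMSN-D2RKO cocaine mice (adjusted p = 0.411). That of Pdyn was -0.39 in WT saline (limma adjusted p = 0.193), -0.42 in WT cocaine (adjusted p = 0.121), 0.35 in iMSN-D2RKO saline (adjusted p = 0.160) and -0.03 in iMSN-D2RKO cocaine mice (adjusted p = 0.971). With the library score as a covariate the Pdyn value of iMSN-D2RKO saline mice was 0.68 and passed (adjusted p = 0.0302). For Tac1 the 4 differences ran from -0.05 to 0.19. Of the 36 libraries of the dark hours 12 were among the 13 that stood apart, and 1 was from the light.

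Within groups, Penk and Tac1 varied together, although they are taken as genes of different neurons. The deviations of the 66 libraries from their group means correlated with Pearson's r = 0.71 (Spearman's rho = 0.63, permutation within groups, p = 2e-05 and 1e-05, the latter the smallest that 100000 resamples can give, adjusted 0.00026 over 39 relations of the 3 genes with each other, with 11 marker lists and with the library score, of which 13 had an adjusted p under 0.05). Without the 2 libraries farthest from the median of Penk r was 0.68, in the 53 libraries not set apart 0.71 and in the 13 others 0.64. The deviations of Penk and Pdyn gave r = 0.02 (rho = 0.05, permutation p = 0.880, adjusted 0.935), with 0.16 in the 53 libraries and -0.36 in the 13. Those of Tac1 and Pdyn, both of the direct pathway, gave r = 0.18 (rho = 0.11, permutation p = 0.275, adjusted 0.518), with 0.39 in the 53 libraries and -0.55 in the 13, so that the pooled value joins opposite signs. Pdyn varied with the mean of 4 genes of the ventral striatum (Cartpt, Dlk1, Crym and Wfs1), with r = 0.75 (rho = 0.66, permutation p = 2e-05, adjusted 0.00026). This r was 0.69 without the 2 libraries farthest on the markers, 0.77 in the 53 libraries and 0.70 in the 13. For Penk and the same markers r was 0.06 (rho = 0.01, permutation p = 0.729, adjusted 0.904), again with opposite signs in the 53 libraries (0.20) and the 13 (-0.60). Tac1 had r = 0.25 with them (rho = 0.24, permutation p = 0.163, adjusted 0.374), also joining opposite signs, 0.41 in the 53 libraries and -0.39 in the 13.

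Pdyn did not vary with the ventral markers alone. Its r with the library score was -0.58 (rho = -0.54, permutation p = 2e-05, adjusted 0.00026), with -0.45 in the 53 libraries and -0.35 in the 13. The score was made from the deviations of 9584 genes, Pdyn among them, and took up 43.6% of their variance. This p is therefore no independent test, and the share of all genes with an r of this size was not counted. With the microglia markers r was 0.53 (rho = 0.50, permutation p = 0.00019, adjusted 0.00143), or 0.36 in the 53 and 0.62 in the 13. With the astrocyte markers it was -0.50 (rho = -0.51, permutation p = 0.00022, adjusted 0.00143), or -0.42 in the 53 and -0.15 in the 13. With the endothelial markers it was 0.42 (rho = 0.40, permutation p = 0.00744, adjusted 0.0264), or 0.19 in the 53 and 0.40 in the 13. Without the 2 libraries farthest on each measure these values were -0.52, 0.49, -0.49 and 0.33.

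Penk and Tac1 varied with the markers of both pathways. Penk had r = 0.48 with those of the indirect pathway (rho = 0.56, permutation p = 0.00356, adjusted 0.0174) and r = 0.59 with those of the direct pathway (rho = 0.63, permutation p = 9e-05, adjusted 0.000877). Tac1 had r = 0.56 (rho = 0.55, permutation p = 0.00147, adjusted 0.00819) and r = 0.49 (rho = 0.45, permutation p = 0.00653, adjusted 0.0263) with the same lists. These 4 values ran from 0.43 to 0.56 in the 53 libraries, from 0.52 to 0.88 in the 13, and from 0.45 to 0.58 without the 2 libraries farthest on the markers. For Pdyn r was 0.01 with the indirect-pathway markers (rho = 0.05, permutation p = 0.942, adjusted 0.967) and -0.05 with the direct-pathway markers (rho = -0.04, permutation p = 0.768, adjusted 0.904). Both pooled values join opposite signs, 0.29 and 0.15 in the 53 libraries and -0.52 and -0.42 in the 13. With the 6 genes shared by all spiny neurons, such as Ppp1r1b, Penk had r = 0.43 (rho = 0.54, permutation p = 0.0108, adjusted 0.0337), which was 0.53 without the 2 farthest libraries, 0.39 in the 53 and 0.79 in the 13. With the same 6 genes Tac1 had r = 0.20 (rho = 0.31, permutation p = 0.446, adjusted 0.644) and Pdyn r = -0.09 (rho = -0.06, permutation p = 0.524, adjusted 0.729). The other relations with an adjusted p under 0.05 were negative, that of Penk with the markers of the septum, preoptic area and hypothalamus (r = -0.45, rho = -0.42, permutation p = 0.0112, adjusted 0.0337) and that of Tac1 with those of oligodendrocytes (r = -0.37, rho = -0.50, permutation p = 0.00674, adjusted 0.0263). Without the 2 farthest libraries they were -0.46 and -0.36, in the 53 libraries -0.42 and -0.31 and in the 13 -0.69 and -0.69. How much of the ventral striatum each punch held was not recorded in the sources used here, and the parts of dissection and library quality in these relations were not tested.

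**Figure D4:**
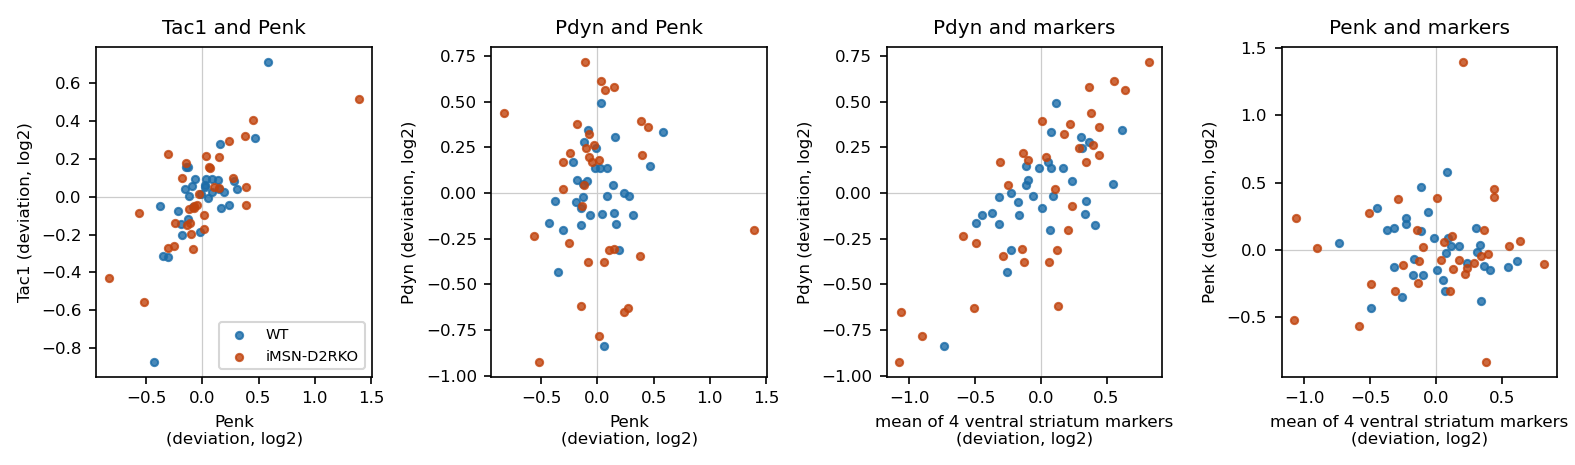
Deviation of each of the 66 libraries from its group mean (log2 scale) for pairs of measures, WT in blue and iMSN-D2RKO in red. From left, Tac1 against Penk (r = 0.71), Pdyn against Penk (r = 0.02), and Pdyn (r = 0.75) and Penk (r = 0.06) against the mean of 4 markers of the ventral striatum.

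The genes most like each member over the 66 libraries were not other peptide genes. Among 9584 genes with a mean of at least 5 FPKM, Penk was most like Bag5, which encodes a cochaperone, with r = 0.91 (0.87 for the deviations within groups). Next came Tpm1 (0.86), a tropomyosin, then Nub1, Brms1 and lipoprotein lipase (Lpl), each 0.85. Without the library of highest Penk these r were 0.89 for Bag5, 0.81 for Tpm1, 0.80 for Lpl and 0.79 for Nub1 and for Brms1. Pdyn was most like Abhd17c and Pdxk, pyridoxal kinase (both 0.75), followed by the kinase Map2k1 and Wrb (both 0.74) and Nrarp (0.72). Tac1 was most like Irak1bp1 and Arpc2, a subunit of the actin nucleating Arp2/3 complex (both 0.74), followed by Gng10 and Nrsn1 (both 0.72) and Rcn1 (0.71). These r describe the libraries, which share depth and dissection.

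No other gene of peptide signalling in 5 lists was called between the genotypes. Few genes of any kind were, 0.189% of those tested in saline and 0.0487% after cocaine. Among 4 other precursors, 3 were tested and 0 called between genotypes in saline or after cocaine, with median differences of -0.08 and 0.07 on the log2 scale. The most abundant was Tac2, the neurokinin B precursor, at a mean of 19.4 FPKM, ahead of Pnoc, the nociceptin precursor (2.67 FPKM), and Pomc, the beta-endorphin precursor (2.09 FPKM). Of 7 opioid and tachykinin receptors 6 were tested and 0 called (medians -0.03 and 0.06). The kappa receptor Oprk1, on which dynorphin acts, had 9.48 FPKM, the nociceptin receptor Oprl1 13.2 FPKM and Tacr1, the NK1 receptor, 7.79 FPKM. Of 11 genes that process or pack peptides all were tested and 0 called, with medians of 0.14 in saline and 0.15 after cocaine beside 0.01 for all genes. In saline 6 of the 11 had an unadjusted limma p under 0.05, as had 1428 of all 14287 genes. The most abundant were carboxypeptidase E (Cpe, 1099.6 FPKM), secretogranin II (Scg2, 241 FPKM) and Pcsk1n, the inhibitor of prohormone convertase 1 (226 FPKM). Of 4 peptidases that can degrade enkephalins or substance P, 0 were called (medians 0.00 and -0.05), with Dpp3 at 14.6 FPKM, neprilysin (Mme) at 10.1 FPKM and Ace at 5.22 FPKM. Of 9 transcription factors known from the regulation of these genes or from the response to dopamine, 0 were called (medians 0.03 and 0.10). The highest were Egr1 (129 FPKM), Egr3 (58.1 FPKM) and Junb (56.0 FPKM). Between cocaine and saline 0 genes of the 5 lists were called in either genotype, while 4 of the 9 transcription factors in WT and 3 in iMSN-D2RKO mice had an unadjusted limma p under 0.05, beside 2.54% and 2.98% of all genes tested.

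Markers of the cell types in the punch were measured beside the Penk result. The punches carried the genes of spiny neurons throughout. Of these, 6 genes summed to a median of 1863 FPKM in the 33 WT and 1977 FPKM in the 33 iMSN-D2RKO libraries, led by Ppp1r1b, which encodes DARPP-32 (1046 and 1104 FPKM). None of these 6 was called in either comparison of the genotypes. Counts of called markers, here and below, stand beside 0.189% of all genes in saline and 0.0487% after cocaine. The 5 genes of indirect-pathway neurons, led by Adora2a (188 and 168 FPKM), summed to 460 (362 to 649) FPKM in WT and 432 (309 to 805) FPKM in iMSN-D2RKO mice, and 0 of 5 were called. Adora2a, the adenosine receptor gene of the neurons that carry Penk, differed by -0.19 in saline (limma adjusted p = 0.691) and -0.10 after cocaine (adjusted p = 1). No marker of the neurons that carry Penk was called beside it, but of all genes only 0.189% in saline and 0.0487% after cocaine were. The 5 genes of direct-pathway neurons, led by Drd1 (84.8 and 114 FPKM), summed to 165 (134 to 220.1) FPKM in WT and 192 (147 to 256) FPKM in iMSN-D2RKO mice, with 0 of 5 called. The higher sum came with Drd1. Of the other 4, the medians in WT and iMSN-D2RKO mice were 41.9 and 43.3 FPKM for Chrm4, 28.6 and 27.2 FPKM for Sfxn1, 8.51 and 8.47 FPKM for Isl1, and 1.49 and 1.28 FPKM for Eya1. The differences of these 4 on the log2 scale ran from -0.10 to 0.01 in saline and from -0.14 to -0.00 after cocaine. Drd1 differed by 0.29 in saline (limma adjusted p = 0.117) and 0.48 after cocaine (adjusted p = 0.194). It passed after cocaine without the libraries that stood apart (0.57, adjusted p = 0.0360) or without iMSN-D2RKO replicate 2 of ZT7 alone (0.54, adjusted p = 0.0151), and in saline with the library score as a covariate (0.30, adjusted p = 0.0266).

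Of the 4 genes of the ventral striatum, led by Crym (276 and 284 FPKM), the list summed to 425 (133 to 617) FPKM in WT and 446 (205 to 718) FPKM in iMSN-D2RKO mice. Cartpt, the precursor of the CART peptide, was the only gene of any list to be called, where 0.189% of all genes were in saline. Its FPKM in the 18 WT libraries of ZT3 and saline ran from 4.59 over a median of 13.5 to 45.6 and in the 18 iMSN-D2RKO libraries from 10.2 over 36.8 to 104. The ranges overlapped, and the difference was 1.29 ± 0.28 on the log2 scale (SE, limma adjusted p = 0.0429). This call was kept in 10 of 39 fits that left out a library or a replicate number (adjusted p 0.00658 to 0.656). It was lost with the replicate number as a block (adjusted p = 0.0617) and without the libraries that stood apart (adjusted p = 0.0803). After cocaine the difference was 1.37 (adjusted p = 0.156), and Cartpt was called without WT replicate 2 of ZT19 (1.53, adjusted p = 0.0255). Markers of other cells in the punch, called in 0 cases, had summed medians in WT and iMSN-D2RKO mice of 1219.8 and 1107 FPKM for interneurons (led by Sst), 128 and 121 FPKM for cortex (Slc17a7), 15.1 and 15.8 FPKM for septum and hypothalamus (Zic1, with Hcrt at a median of 0), 2708 and 2319 FPKM for oligodendrocytes (Mbp), 178 and 166 FPKM for astrocytes (Slc1a3), 102 and 98.9 FPKM for microglia (C1qa) and 51.9 and 53.3 FPKM for endothelium (Cldn5). The part of these cells in the Penk difference was not tested.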

How the data were processed

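Frozen punches of the ventral striatum gave RNA for poly(A)-selected, strand-specific Illumina libraries. According to the study's methods the authors aligned the reads to mm10 with TopHat and Bowtie2, and Cufflinks and Cuffnorm gave the deposited FPKM values, normalized across libraries, for 24138 genes. Read counts were not used here. All 72 columns were mapped to the 66 libraries by name. The 6 ZT3 libraries are listed with both treatments, hold identical values there and were counted once. The labels do not say whether each library is a separate mouse, so p-values measure the spread between these samples, which may be technical in part.

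Levels were compared on log2(FPKM + 1) for genes that reached 1 FPKM in 1 or more libraries compared, so that differences of low genes are understated. Limma 3.58.1 in R 4.3.3 was fitted over all genes with the time point as a factor, an intensity trend in the variance and Benjamini-Hochberg adjustment. Single time points and dark against light hours were contrasts in 1 fit of all 22 groups, which share the estimate of the spread. Genes with an adjusted p under 0.05 are named as called. JTK_CYCLE was coded anew after the study's description but searched periods of 20 and 24 h only, where the study's window reaches 28 h, with 1 value per time point at most left out by Dixon's test, and a threshold of 0.01. Ratios were tested by exact permutation within time points. Ratios and figures were made in Python 3.11.15 (numpy 2.4.6, matplotlib 3.10.9, pandas 2.3.3). The limma and JTK_CYCLE steps were tested on simulated data. Another pseudocount, filter and scaling, the replicate number as a block, a library covariate and the omission of libraries were tried as alternatives. The period of 28 h was added as an alternative after the data had been seen.

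The 3 genes and all lists were chosen with earlier results of these data known. Named besides them are Drd2, called genes of the lists, otherwise the 3 with the highest mean FPKM in each pathway list, and the 5 genes most like each of the 3. Values of further markers are given where they stand beside a result. Sepw1 and Cst3 were named after their values were seen. Of the deposited entries, 355 join several genes. The single values of 1 marker of the lists are not reported here.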

Additional observations from a re-analysis of the deposited data

Results flagged for a closer look

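In WT mice Tac1 after cocaine lay on opposite sides of saline at the first 2 sampling times. At ZT7 all 3 cocaine libraries (297, 368 and 238 FPKM) were above all 3 saline libraries (222, 226 and 211 FPKM), with a ratio of means of 1.37, and 4.84% of 14643 genes were separated in this direction. At ZT11 all 3 cocaine libraries (219, 267 and 267 FPKM) were below all 3 saline libraries (274, 300.1 and 273 FPKM), with a ratio of 0.888, as 5.75% of genes were. Neither comparison was called by limma, and the difference between the time points was not tested.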

How the results depend on the processing

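Penk kept its direction between genotypes under every alternative run. In saline the difference was 0.76 with no filter on low values (limma adjusted p = 0.0547) and 0.79 without the 13 libraries that stood apart (adjusted p = 0.0609), and ran from 0.64 to 0.80 when a library or a replicate number was left out. After cocaine it was 0.69 with no filter (adjusted p = 0.192) and 0.70 without the libraries that stood apart (adjusted p = 0.0574), and ran from 0.62 to 0.77 on leaving out. These calls were lost with differences of like size, and the cause was not tested. The number of genes called in saline was 27, against 136 with the library score as a covariate, 6 among genes with a mean of at least 5 FPKM, 47 without the libraries that stood apart and 7 to 32 on leaving out. After cocaine it was 7, against 25, 3, 14 and 0 to 13.

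With the replicate block the Penk difference was 0.76 in saline (adjusted p = 0.0193) and 0.69 after cocaine (adjusted p = 0.0325), with 19 and 7 genes called, and no call of the 3 genes changed. The call of Cartpt was lost (adjusted p = 0.0617), as also with no filter (0.0670), with the filter at a mean of 5 FPKM (0.0683), with scaling to total FPKM (0.0687) and without the libraries that stood apart (0.0803). The numbers do not pair the libraries: of 30 saline and cocaine pairs 7 had a correlation of deviations over 0.1, from -0.771 to 0.608, and 5 correlated best with their own number.

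Pdyn between dark and light hours in iMSN-D2RKO saline mice passed with the library score as a covariate (0.68, adjusted p = 0.0302). Differences near 0 changed sign, and the cause was not tested. With the score as a covariate Pdyn between dark and light hours in iMSN-D2RKO cocaine mice became 0.0926, and with scaling to total FPKM the cocaine effect on Penk in iMSN-D2RKO mice became 0.0059. Without the libraries that stood apart, that Pdyn difference became 0.0658, the cocaine effect on Penk in WT mice -0.0021, Tac1 between dark and light hours in WT cocaine mice 0.00090, the Tac1/Pdyn ratio between genotypes -0.10 after cocaine and -0.0327 in saline, and the cocaine effect on the Tac1/Penk ratio in WT mice 0.0395.

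Leaving out a library or a replicate number also moved small differences across 0. Between the genotypes Drd2 in saline ran from -0.13 to 0.0721 and Tac1 after cocaine from -0.17 to 0.0103. The cocaine effect in WT mice ran from -0.0480 to 0.0791 for Penk, from -0.0402 to 0.29 for Pdyn and from -0.11 to 0.0954 for Tac1, and for the ratios from -0.12 to 0.26 (Pdyn/Penk), -0.25 to 0.0189 (Tac1/Pdyn) and -0.10 to 0.0585 (Tac1/Penk). That on Penk ran from -0.13 to 0.0597 in iMSN-D2RKO mice, and its difference between genotypes from -0.17 to 0.0369. Between dark and light hours the range was -0.24 to 0.39 for Penk in iMSN-D2RKO saline, -0.18 to 0.0949 for Pdyn in iMSN-D2RKO cocaine and -0.17 to 0.0977 for Tac1 in WT cocaine mice. The calls of the 3 genes at single time points numbered 0 to 1, the 1 being Pdyn in iMSN-D2RKO mice at ZT7 without saline replicate 2. Of the pathway genes 1 was called in saline with the library score (Chga), 1 with scaling to total FPKM (Kcnip3), and 1 each without iMSN-D2RKO or WT replicate 1 of ZT23 saline.

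With 3 libraries per group and unknown read numbers, differences at single time points are imprecise. The corrected JTK_CYCLE p of Penk in WT saline, 0.0199, became 0.00608 and passed with a period of 28 h added, an alternative chosen after seeing the data, and ran up to 0.403 over the others without passing. The cause was not tested.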
